A study of Rattus norvegicus with 18 samples.

Results

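The 4 genes described here, Lpl, Lox, Spock2_predicted and A2m, encode secreted proteins whose mRNA was lower in primary rat cortical neurons after CHD5 shRNA. They were chosen by their falls after CHD5 shRNA on these same arrays, starting at day 5 or reaching both later days, and were found by their gene symbol among the 22523 probes of the array. Each gene had 1 probe, so they are 4 of 22523 probes, and all 4 were among the 11079 probes detected on at least 1 array. The neurons were prepared from rat embryos and were infected for 6 hours on day 1 after plating, with a virus that delivers CHD5 shRNA or, as control, with one that carries a scramble shRNA in the same pLKO.1 vector. RNA was taken on day 5, day 9 and day 12. Replicates are lettered a, b and c within each virus and day, so the 18 arrays form 6 groups of 3. All groups therefore share the virus treatment and the neuronal medium, and 1 shRNA against CHD5 was used on the arrays. No probe carried the symbol Chd5, so the targeted mRNA was not checked here.

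Lpl, lipoprotein lipase, is secreted and held at the cell surface by heparan sulfate and anchoring proteins, where it hydrolyses the triglycerides of lipoproteins and delivers fatty acids to cells. Lox, lysyl oxidase, is a copper enzyme that oxidises lysines of collagens and elastin so that the fibres become cross-linked. Spock2 encodes testican-2, a proteoglycan of the SPARC family that is abundant in the extracellular matrix of the brain. A2m, alpha-2-macroglobulin, traps proteinases of all major classes, the complexes are cleared through the receptor Lrp1, and in rats it is known as an acute phase protein induced through gp130 and STAT3. Glial cells of the brain are a known source of several such secreted proteins, and the study describes glia as rare in these cultures.

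Every value below rests on a single probe of 50 bases per gene. The first 30 bases of each are printed in lower case, 5′ to 3′, since they fix which stretch of the transcript was measured.

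Lpl: cgctgttgtggctatctggggtgtagattt

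Lox: gtcccatatgactgcttgctgcgtactagg

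Spock2_predicted: gaggcaggacctgttcacacaacaaggctt

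A2m: gcctgaggacgcagtgaataagaagtgttt

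The array's annotation places the Lpl probe on the minus strand of chromosome 16, band 16p14, at 22532653 to 22532702. It places the Lox probe on the minus strand of chromosome 18, band 18q11, at 47893904 to 47893953. The Spock2_predicted probe lies on the plus strand of chromosome 20, band 20q11, at 29501185 to 29501234, and the A2m probe on the plus strand of chromosome 4, band 4q42, at 158153304 to 158153353. The genome build of these positions is not given in the sources used here. In their transcripts the probes begin at base 3420 (Lpl), 4473 (Lox), 2111 (Spock2_predicted) and 4477 (A2m).

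The deposited signal of a probe is the mean brightness of its beads. Here it was put on a log2 scale and Z-transformed per array, then scaled back to signal units, and the values below are these normalized signals unless they are called raw. On 17 arrays the mean raw signal lay between 400.2 and 789 and 8360 to 9931 probes were detected, that is, their detection p-value against the negative control beads did not exceed 0.02. The day 9 control array of replicate b stood apart, with a mean raw signal of 135, 7047 detected probes and an SD of its log2 signals of 1.11, against 1.72 to 2.02 on the other 17. For the 4 genes, day 9 values are also given without it. The labels do not say whether the 3 replicates of a group were separate cultures, so p-values measure only the spread between these arrays. Signals of different probes are not set against each other.

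Lpl was lower after CHD5 shRNA on all 3 days. At day 5 its signal was 791, 852 and 765 in control replicates a, b and c and 296, 368 and 306 in the CHD5 shRNA replicates. At day 9 it was 1828, 972 and 1794 in control and 411, 473 and 321 after CHD5 shRNA. At day 12 it was 1300.4, 1544 and 1346 in control and 408, 418 and 384 after CHD5 shRNA. The lowest control array lay above the highest CHD5 shRNA array on each day, and the probe was detected on all 18 arrays. The difference, CHD5 shRNA minus control on the log2 scale, was -1.32 at day 5 (SE 0.19, n = 3 per group), -1.89 at day 9 and -1.79 at day 12, so the control level was 2.49-fold, 3.71-fold and 3.46-fold that after CHD5 shRNA. RNA of whole cultures was measured, so fewer cells of a type and less RNA per cell cannot be told apart here or below. The lowest day 9 control value is that of replicate b, whose raw Lpl signal of 243 was under the raw signals of the CHD5 shRNA arrays of that day (279 to 399). Without that array the day 9 difference was -2.24.

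Lox was lower after CHD5 shRNA at days 5 and 9, and its level in control neurons fell with time as well. In control replicates a, b and c of day 5 the signal was 652, 614 and 575, against 195, 224 and 183 after CHD5 shRNA. At day 9 it was 497, 316 and 463 in control and 183, 138 and 131 after CHD5 shRNA. At day 12 it was 194, 137 and 171 in control and 161, 94.9 and 138 after CHD5 shRNA. The groups did not overlap at days 5 and 9 and overlapped at day 12. The raw day 9 signal of control replicate b, 121, lay among those of the CHD5 shRNA arrays of that day (118 to 176). The log2 difference was -1.62 at day 5 (SE 0.20), -1.49 at day 9 and -0.37 at day 12, and the control level was 3.07-fold, 2.80-fold and 1.29-fold that after CHD5 shRNA. Detection was complete except on the day 12 CHD5 shRNA array of replicate b (detection p-value 0.0691), and without that array the day 12 difference was -0.15. Without control replicate b the day 9 difference was -1.72, against -1.65 at day 5 in the same fit, so which of these 2 days had the wider difference depends on that array.

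Spock2_predicted was also lower on each day, by less. At day 5 its signal was 903, 766 and 789 in control replicates a, b and c and 538, 431 and 461 after CHD5 shRNA. At day 9 it was 775, 461 and 598 in control and 426, 452 and 379.8 after CHD5 shRNA. At day 12 it was 995, 944 and 867 in control and 531, 553 and 492 after CHD5 shRNA. The arrays of the lentiviruses were apart at days 5 and 12, whereas at day 9 control replicate b, at 461, came next to the highest CHD5 shRNA array at 452. The log2 difference was -0.78 at day 5 (SE 0.15), -0.51 at day 9 and -0.83 at day 12, or 1.72-fold, 1.43-fold and 1.78-fold. Without control replicate b it was -0.72 at day 9, and the probe was detected on all 18 arrays. The raw signal of that control array, 153, was under those of the CHD5 shRNA arrays of day 9 (328 to 406).

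A2m stood close to the background throughout. At day 5 its signal was 137, 128 and 106 in control replicates a, b and c and 94.2, 104 and 98.8 after CHD5 shRNA. At day 9 it was 215, 145 and 187 in control and 111, 115 and 109.7 after CHD5 shRNA. At day 12 it was 174, 172 and 182 in control and 120.0, 100.3 and 112 after CHD5 shRNA. Control arrays were above CHD5 shRNA arrays without overlap on each day, at day 5 by a narrow margin. The lowest control array of day 5, replicate c, did not detect the probe (detection p-value 0.023). Nor did the lowest control array of day 9, replicate b (detection p-value 0.0618). Its raw A2m signal of 75.2 was under those of the CHD5 shRNA arrays of that day (99.7 to 107), so the day 9 order there rests on the scaling. The probe was detected on 2, 2 and 3 of the 3 control arrays of days 5, 9 and 12 and on 1, 2 and 2 of the CHD5 shRNA arrays. The log2 difference was -0.31 at day 5 (SE 0.13), -0.69 at day 9 and -0.67 at day 12, or 1.24-fold, 1.61-fold and 1.59-fold. Without control replicate b the day 9 difference was -0.86. Its raw signals of 75.2 to 237 lie near the lowest raw signal of any detected probe on each array (79.6 to 119), so the background makes up much of them and a difference is compressed. After background correction with neqc, a procedure that uses the negative control beads, the A2m differences were -0.56, -0.998 and -1.20.

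**Figure D1:**
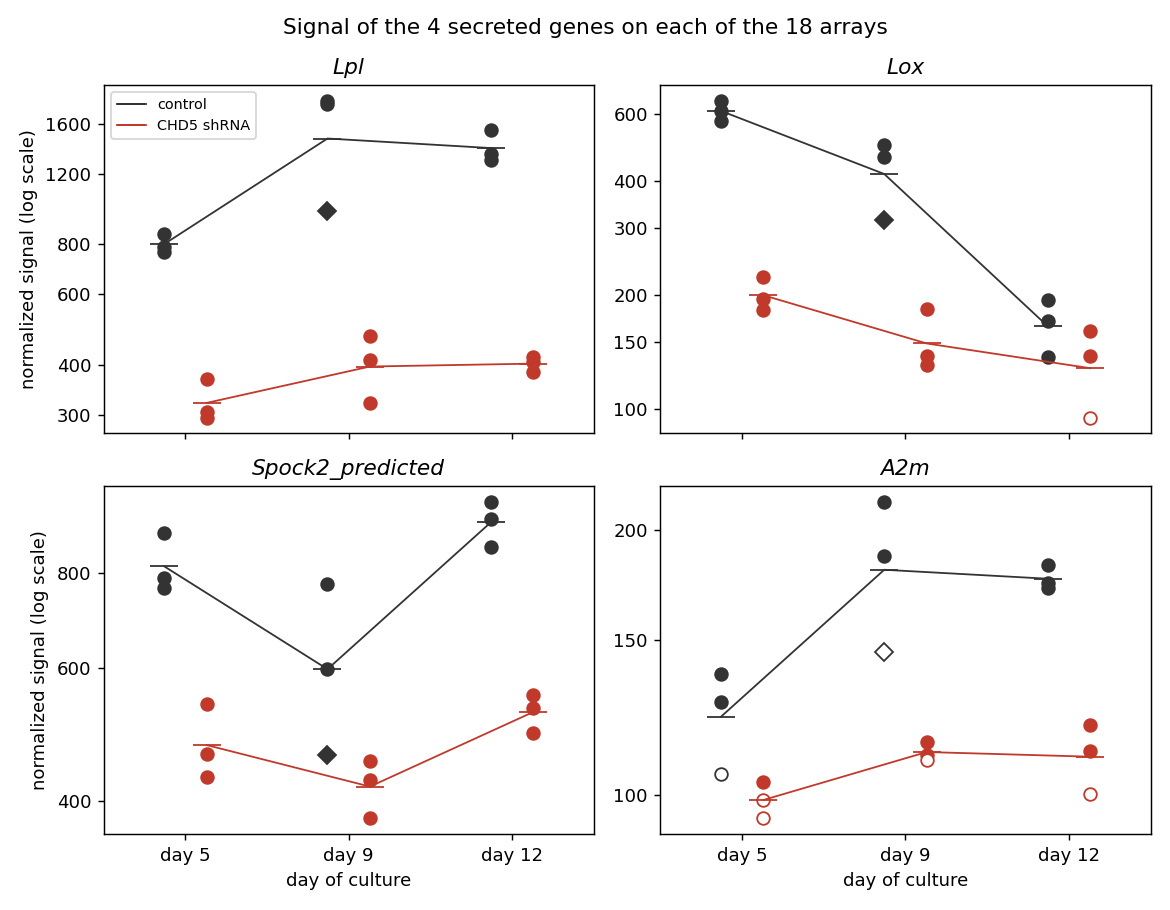
Normalized signal (log axis, a scale of its own in each panel) of Lpl, Lox, Spock2_predicted and A2m on each of the 18 arrays by day of culture, control in black and CHD5 shRNA in red. Points are arrays (filled where detected, open where the detection p-value was above 0.02), the diamond is day 9 control replicate b, and bars joined by lines are geometric means of 3 arrays. The red points lie below the black points of the same day in each panel except Lox at day 12, where they overlap.

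These differences chose the genes, so they are a description and carry no test. Among the 11079 probes ranked from the lowest difference, Lpl was at place 2 at day 5, 1 at day 9 and 2 at day 12, and Lox at 1, 4 and 543. Spock2_predicted was at place 9, 254 and 57, and A2m at 302, 99 and 130. The rule had no numerical limit, so there is no boundary against which to set the genes just inside and outside it. At day 5, 4 of the 4 genes were lower without overlap of the arrays, beside 5.8% of all 11079 probes. At day 9 it was again 4 of 4, beside 8.16%, and at day 12 it was 3 of 4, beside 18.3%. By limma's adjusted p the fit counted 3, 4 and 3 of the 4 as lower at days 5, 9 and 12, beside 0.126%, 2.25% and 3.24% of all probes, with A2m at day 5 and Lox at day 12 outside the count. Nothing is read from these shares.

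The size of the difference over the days varied among the genes. For Lpl it grew from day 5 to day 9 and stayed there, and for A2m it did likewise from a smaller start. For Lox it was of like size at days 5 and 9 and small at day 12. For Spock2_predicted it was smallest at day 9, and there it was -0.72 without control replicate b. No test of these courses is given, since they come from the differences that chose the genes.

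The differences by letter and in the second measurements use the samples on which the genes were chosen, so their direction follows from the choice and they only describe the spread. Between the control and the CHD5 shRNA array of the same letter and day, 36 of 36 log2 differences were below 0, from -2.48 to -0.03, the last being Spock2_predicted at day 9 in replicate b. The 6 arrays of replicate a had been measured again, for a reason that the study does not state. First and second measurement correlated with r of 0.997 to 0.998 across the kept probes, and 12 of 12 differences in the second measurement were below 0, from -2.14 to -0.16. These are repeat readings of the same samples and not further replicates.

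**Figure D2:**
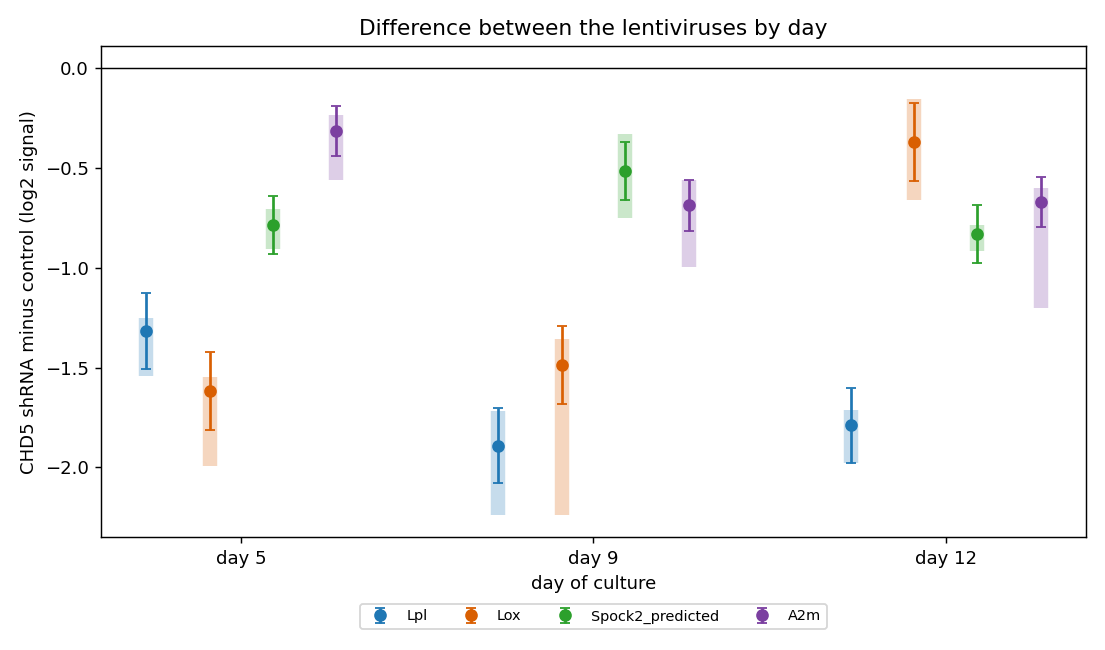
Difference between the lentiviruses (CHD5 shRNA minus control, log2 signal) of the 4 genes at days 5, 9 and 12. Points are limma estimates from 3 arrays per group, error bars are 1 SE and pale bars span the values over all alternative settings and arrays left out. All bars lie below 0, and that of Lox at day 12 comes nearest to it, at -0.15.

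The change with day of culture within a lentivirus is a different contrast from the one that chose the genes, but it uses the same arrays. A choice for falls at a day favours high control and low CHD5 shRNA values at that day, so the adjusted p-values below set a change against the spread of the arrays and are not free of that choice. In control neurons Lpl rose from day 5 to day 9 by 0.88 on the log2 scale (SE 0.19, limma adjusted p = 0.00312), which is a change from a geometric mean of 802 to 1472. It then stayed level, with -0.08 from day 9 to day 12 (limma adjusted p = 0.829), and was 0.80 higher at day 12 than at day 5 (limma adjusted p = 0.00449). The day 5 arrays lay below those of both later days without overlap. Without day 9 control replicate b the 3 changes were 1.20, -0.39 and 0.82 (limma adjusted p = 1.24e-06, 0.0928 and 1.58e-05). After CHD5 shRNA the geometric mean of Lpl was 322, 396 and 403 at days 5, 9 and 12. The changes were 0.30 from day 5 to day 9 (limma adjusted p = 0.36), 0.02 from day 9 to day 12 (limma adjusted p = 0.993) and 0.33 from day 5 to day 12 (limma adjusted p = 0.278), none of them called, although the last was called in 5 of 27 alternatives. One of those left out day 9 control replicate b (0.33, limma adjusted p = 0.036).

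Lox fell in control neurons, from a geometric mean of 613 at day 5 to 418 at day 9 and 166 at day 12. The log2 change was -0.55 from day 5 to day 9 (SE 0.20, limma adjusted p = 0.0503), just short of the limit of 0.05, and it was called in 7 of 27 alternatives, among them the fit without control replicate a of day 9 (-0.68, limma adjusted p = 0.0146) and the replicate block (limma adjusted p = 0.0196). It was -1.33 from day 9 to day 12 (limma adjusted p = 4.99e-04) and -1.89 from day 5 to day 12 (limma adjusted p = 8.56e-07), with no overlap of the arrays in any of the 3. Without day 9 control replicate b they were -0.36, -1.57 and -1.93 (limma adjusted p = 0.185, 1.97e-05 and 1.16e-08). After CHD5 shRNA the mean went from 199.8 to 149 and 128. Its change was -0.42 from day 5 to day 9 (limma adjusted p = 0.193), -0.22 from day 9 to day 12 (limma adjusted p = 0.875) and -0.64 from day 5 to day 12 (limma adjusted p = 0.0299). Without CHD5 shRNA replicate b of day 12, on which Lox was not detected, the last change was -0.42 and was not called (limma adjusted p = 0.195). The call was also lost without CHD5 shRNA replicate c of day 12 (limma adjusted p = 0.056) or without replicate a or b of day 5 (limma adjusted p = 0.0644 and 0.123). The control arrays of day 12 overlapped the CHD5 shRNA arrays of each of the 3 days in their Lox signal.

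Spock2_predicted had no steady direction in control neurons. It was lower by 0.45 at day 9 than at day 5 (-0.45, SE 0.15, limma adjusted p = 0.0349) and higher by 0.64 at day 12 than at day 9 (limma adjusted p = 0.0163), while day 12 and day 5 differed by 0.19 (limma adjusted p = 0.383). The first of these rests on day 9 control replicate b, without which it was -0.27 (limma adjusted p = 0.136), and the day 5 and day 9 arrays overlap. It was also lost without control replicate c of day 9 (limma adjusted p = 0.0622) or replicate a or b of day 5 (limma adjusted p = 0.132 and 0.0536). The second was 0.47 without day 9 control replicate b (limma adjusted p = 0.0263), and it was not called without control replicate a or b of day 12 (limma adjusted p = 0.095 and 0.0562). After CHD5 shRNA the geometric means were 475, 418 and 525 at days 5, 9 and 12, and none of the changes was called (limma adjusted p of 0.454 to 0.572).

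A2m rose in control neurons, from a geometric mean of 123 at day 5 to 180 at day 9 and 176 at day 12. The change was 0.55 from day 5 to day 9 (SE 0.13, limma adjusted p = 0.00473), -0.03 from day 9 to day 12 (limma adjusted p = 0.896) and 0.52 from day 5 to day 12 (limma adjusted p = 0.00556). The day 5 arrays lay below all later control arrays. Without day 9 control replicate b the 3 changes were 0.73, -0.19 and 0.53 (limma adjusted p = 5.01e-05, 0.356 and 1.92e-04). After CHD5 shRNA the means were 98.8, 112 and 111, the changes were 0.18, -0.02 and 0.16, and none was called (limma adjusted p of 0.423, 0.993 and 0.44). Between 1 and 2 of 3 arrays detected the probe in each of these groups, so part of the level there is background.

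In counts, 3 of the 4 genes changed in control neurons between day 5 and day 9, namely Lpl and A2m higher and Spock2_predicted lower, beside 9.18% of all probes called higher and 12.8% called lower. Between day 9 and day 12 it was 2 of 4, with Spock2_predicted higher, beside 2.95%, and Lox lower, beside 1.21%. Between day 5 and day 12 it was 3 of 4, with Lpl and A2m higher, beside 11.1%, and Lox lower, beside 12.5%. After CHD5 shRNA limma called 0 of 4 between days 5 and 9, beside 9.33% of all probes called in either direction, and 0 of 4 between days 9 and 12, beside 1.37%, with 1 gene at an unadjusted p under 0.05 in each case. Between days 5 and 12 it called Lox alone, beside 8.56% called lower. The exact permutation test of 3 against 3 arrays, two-sided, cannot go below 0.1 and was at 0.1 for each of the 8 calls in control except Spock2_predicted from day 5 to day 9, where it was 0.2. Whether a change with day differed between the lentiviruses was not tested, because that difference is made of the values by which the genes were chosen.

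**Figure D3:**
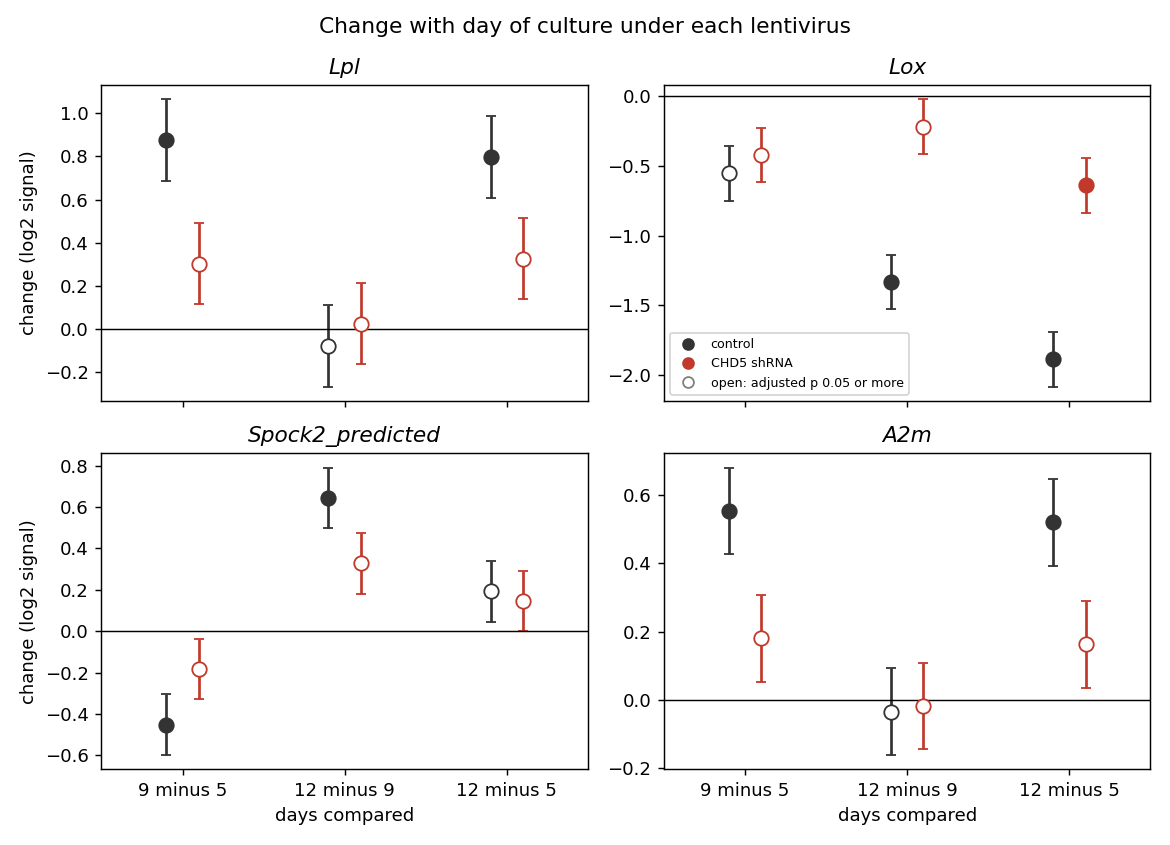
Change of the log2 signal between days of culture within control (black) and within CHD5 shRNA (red) for the 4 genes. Points are limma estimates with 1 SE from 3 arrays per group, filled where the adjusted p was below 0.05 and open otherwise. In control, Lpl and A2m were higher at day 12 than at day 5 and Lox was lower, and after CHD5 shRNA the only filled point is Lox from day 5 to day 12.

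The order of the levels over the 6 groups separates the genes further. For Lpl the 3 control groups came first (day 9, day 12, day 5) and the 3 CHD5 shRNA groups last (day 12, day 9, day 5). Control days 9 and 12 overlap, as do neighbouring CHD5 shRNA groups. For Lox the order was control day 5, control day 9, CHD5 shRNA day 5, control day 12, CHD5 shRNA day 9 and CHD5 shRNA day 12, and from the third place on each group overlaps the next. For Spock2_predicted it was control days 12, 5 and 9 and then CHD5 shRNA days 12, 5 and 9, where every group overlaps its lower neighbour. For A2m it was control days 9, 12 and 5 and then CHD5 shRNA days 9, 12 and 5, with a gap only between control days 12 and 5.

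The probes whose signal ran most like each gene over the 18 arrays were found by Pearson's r among probes detected on all 3 arrays of a group. The arrays share groups and scaling, so these are descriptions. Nearest to Lpl were RGD1563325_predicted (r = 0.95), Itgav_predicted (r = 0.95), the integrin alpha V chain, and Grtp1_predicted (r = 0.94), and their differences at day 9 were -1.25, -0.64 and -0.51. Nearest to Lox were Nid1 (r = 0.93), the basement membrane protein nidogen, Col1a2 (r = 0.90), a chain of type I collagen, and Bub1b (r = 0.89), a mitotic checkpoint kinase. Nid1 differed by -0.78, -0.67 and -0.26 at days 5, 9 and 12 and Col1a2 by -0.84, -0.98 and 0.21. Both had their smallest difference at day 12, as Lox did. Since they were picked by their r with Lox over these arrays, a like course follows from the choice. Nearest to Spock2_predicted were Gpc4 (r = 0.93), a heparan sulfate proteoglycan of the cell surface, LOC499428 (r = 0.93) and Fundc1 (r = 0.92), and nearest to A2m were Galm (r = 0.96), the galactose mutarotase, Myh14 (r = 0.96), a non-muscle myosin heavy chain, and Sp110 (r = 0.95). The A2m neighbours differed by -0.38, -0.56 and -0.20 at day 5 and by -0.71, -0.71 and -0.74 at day 12.

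The genes that work with the 4 were listed by their known function, although with earlier results of these data known, and the difference between the lentiviruses was tested gene by gene. Of the 92 kept genes on the 5 lists, limma called 1 lower and none higher at day 5. The numbers were 15 and 3 at day 9, and 10 and 1 at day 12. All probes called higher made up 0.0451%, 3.65% and 2.23% at the 3 days, and the shares called lower were given above. The counts depend on the settings, since with only the 6 arrays of a day in the fit 0, 0 and 42 list genes were called, with 21 and 22 at an unadjusted p under 0.05 on the first 2 days, and without day 9 control replicate b 7, 21 and 26 were called.

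Of the lipoprotein lipase partners 17 of the 24 on the array were kept, and 0, 3 and 2 were lower at days 5, 9 and 12, with none higher. The median difference was -0.03, -0.09 and -0.03, against 0.01, -0.02 and 0.01 over all probes. Apoe, the apolipoprotein of brain lipoproteins, was lower by 1.81 at day 9 (difference -1.81, limma adjusted p = 0.00337) and was at -0.98 at day 12 (limma adjusted p = 0.084). Both values depend on day 9 control replicate b. The fit without that array gave -1.27 at day 9 (limma adjusted p = 8.45e-05) and -1.002 at day 12 (limma adjusted p = 1.14e-04). Apoe was called lower in 26 of 27 alternatives at day 9 and in 9 of 27 at day 12. Apoc1, another apolipoprotein, was lower at day 9 (-0.49, limma adjusted p = 0.00913) and at day 12 (-0.52, limma adjusted p = 0.00423), and Pnlip, the pancreatic lipase, at day 9 (-0.86, limma adjusted p = 0.0239). Angptl4, an inhibitor of the lipase, was called at day 12 (-0.46, limma adjusted p = 0.0446), was detected on 2 of 18 arrays, and was called in 9 of 26 alternatives. The lipoprotein receptors Vldlr and Lrp1 were not called on any day, with -0.15 and -0.09 at day 5 and -0.17 and 0.12 at day 12. Gpihbp1 and Lmf1, which anchor and mature the enzyme, have no probe here, and Apoc2, its activator, was below detection on every array.

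The lysyl oxidase family and its substrates had 31 of 46 genes kept, of which 0, 6 and 2 were lower and none higher at days 5, 9 and 12. Their median difference was -0.08, -0.19 and -0.06. Plod1, which hydroxylates the lysines of collagen, was lower at day 9 (-0.68, limma adjusted p = 9.80e-04) and day 12 (-0.69, limma adjusted p = 5.31e-04). Col1a2 (-0.98, limma adjusted p = 0.0325), the elastic fibre protein Mfap4 (-0.58, limma adjusted p = 0.00691) and fibulin-1, Fbln1_predicted (-0.58, limma adjusted p = 0.0211), were lower at day 9, and at day 5, where none was called, they were at -0.84, -0.45 and -0.53. The day 9 calls of Col1a2, Mfap4 and Fbln1_predicted were kept in 20, 24 and 21 of 27 alternatives. Loxl1, a paralog of Lox, was lower by a small amount at both later days (-0.37 each, limma adjusted p = 0.0245 and 0.0225). Each of its calls was kept in 18 of 27 alternatives, and its probe was detected on 7 of 18 arrays. Bmp1, the proteinase that activates the Lox proenzyme, was at -0.16, -0.19 and -0.25 and was not called. Loxl2, Loxl3, Loxl4, Col1a1 and Eln were not detected on any array.

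Of the testican and SPARC family with the membrane metalloproteinases and brain proteoglycans, 24 of 25 were kept, and 1, 4 and 4 were lower and 0, 1 and 0 higher. The median difference was -0.09, -0.19 and -0.07. Gpc4 was the gene called at day 5 (-0.59, SE 0.10, limma adjusted p = 0.021), and it was lower at day 9 (-0.37, limma adjusted p = 0.0463) and day 12 (-0.39, limma adjusted p = 0.0357) too. The replicate letter as a block ended its day 5 call (limma adjusted p = 0.0555), and its calls at days 5, 9 and 12 were kept in 19, 9 and 17 of 27 alternatives. Decorin, Dcn, was lower at days 9 and 12 (-0.55 and -0.69, limma adjusted p = 0.00355 and 4.43e-04), and Sparcl1, a SPARC relative, at day 9 (-0.94, limma adjusted p = 0.0154). Without day 9 control replicate b that Sparcl1 difference was -0.57 (limma adjusted p = 0.00323), and its call was kept in 22 of 27 alternatives. Timp2, an inhibitor of metalloproteinases, was higher at day 9 (0.60, limma adjusted p = 0.0443), a call kept in 8 of 27 alternatives. Spock1, a paralog of Spock2, had differences of -0.12, 0.59 and 0.22 and was not called, but at day 9 it was called higher in 6 of 27 alternatives, the replicate block among them (limma adjusted p = 0.0146). Sparc (-0.61, -0.22 and -0.36) was not called. The membrane metalloproteinases Mmp14 and Mmp16 were not called, with 0.01, -0.22 and -0.60 for Mmp14 and -0.30, 0.18 and 0.05 for Mmp16. Without day 9 control replicate b Mmp14 was called lower at day 9 (-0.66, limma adjusted p = 0.00278) and day 12 (-0.61, limma adjusted p = 0.00132), and over the alternatives it was called 1 time at day 9 and 5 times at day 12. Spock3 has no probe here.

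Among the macroglobulins and proteinase inhibitors 12 of 26 genes were kept, with 0, 2 and 2 lower and 0, 2 and 1 higher and a median difference of -0.0055, -0.12 and -0.0022. Serpine2, protease nexin-1, was lower at days 9 and 12 (-0.77 and -0.91, limma adjusted p = 0.00152 and 2.22e-04), as was Itih3, an inter-alpha-trypsin inhibitor chain (-0.50 and -0.58, limma adjusted p = 0.0221 and 0.00798). The cystatin Cst6 was higher on the same days (0.74 and 0.63, limma adjusted p = 0.00886 and 0.0203) and the Kunitz inhibitor Spint2 at day 9 (0.62, limma adjusted p = 0.0155). Lrpap1, the chaperone of Lrp1, was at 0.11, 0.24 and 0.04 and was not called. Of the gp130 and STAT3 pathway, which is known to induce A2m in rats, 9 of 21 genes were kept and limma called 0 on any day, with 0, 1 and 1 at an unadjusted p under 0.05. Stat3 was at -0.14, 0.25 and 0.06, and Il6st, which encodes gp130, and Socs3 were not detected.

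**Figure D4:**
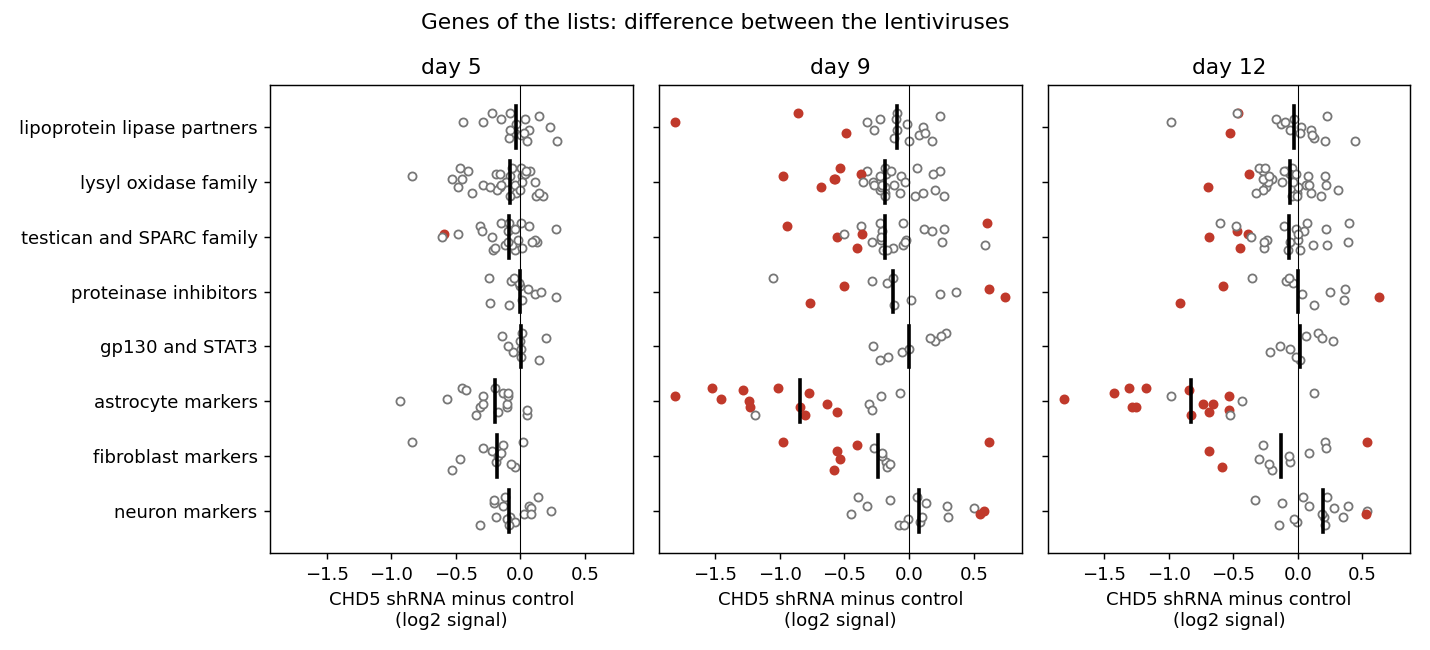
Difference between the lentiviruses (CHD5 shRNA minus control, log2 signal) of each kept gene of the 5 functional lists and of 3 marker lists at days 5, 9 and 12. Each point is 1 gene, red where the limma adjusted p was below 0.05, vertical position within a row has no meaning and black bars are list medians. The astrocyte markers have the lowest medians at days 9 and 12, at -0.84 and -0.83. The day 9 values include control replicate b.

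Markers of cell types moved between the lentiviruses too. All 16 neuron markers on the array were kept, and 0 were lower and 0, 2 and 1 higher after CHD5 shRNA at days 5, 9 and 12, with 0, 4 and 5 at an unadjusted p under 0.05. Their summed signal at day 5 was 46877 to 58284 after CHD5 shRNA and 45613 to 57939 in control. At day 9 it was 66551 to 74047 and, leaving aside control replicate b, 52447 to 60990. At day 12 it was 64778 to 67655 and 59607 to 60076. Of the astrocyte markers 17 of 18 were kept. At day 5 limma called 0 of them (3 at an unadjusted p under 0.05), 15 were below 0 with a median of -0.20, and their summed signal was 8458 to 8983 after CHD5 shRNA against 10697 to 11151 in control. At days 9 and 12, 12 and 13 of 17 were lower with none higher, and medians were -0.84 and -0.83. The day 9 count and median include control replicate b, as do those of the other lists. The summed astrocyte signal at day 12 was 35608 to 37633 after CHD5 shRNA and 68039 to 72005 in control. At day 9 it was 21786 to 27841 and 38136 to 46025, leaving aside control replicate b, whose sum after scaling was 140377. Leaving aside that array, the sum in control neurons rose from day 5 to day 9 and again to day 12. The courses of the 4 genes were not tested against this sum. Apoe stands on both the astrocyte list and the list of lipase partners.

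Fibroblast and meningeal markers had 12 of 15 genes kept, with 11 below 0 at day 5, none of them called (5 at an unadjusted p under 0.05). At day 9 limma called 5 lower and 1 higher, and for day 12 the numbers were 2 and 1. The gene called higher was Thy1 on both days (0.62 and 0.53, limma adjusted p = 0.00421 and 0.00756). The summed signal of the 12 was 1442 to 1497 after CHD5 shRNA and 1739 to 2025 in control at day 5. At day 9 it was 1799.9 to 2024 and 2191 to 2528, and at day 12 it was 2517 to 2534 and 2617 to 2830.0. Of the 5 lower at day 9, Col1a2, Fbln1_predicted and Fbln2 also stand on the lysyl oxidase list and Dcn on the proteoglycan list, so they are counted there too, and Fn1, Postn_predicted and Col5a1 are shared with the lysyl oxidase list as well. The defining markers Col1a1 and Col3a1 were not detected on any array. Of the oligodendrocyte lineage markers 10 of 11 were kept and 0, 2 and 2 were lower, and their sum at day 5 was 6301 to 7239 after CHD5 shRNA and 7483 to 9264 in control. At day 9 the sums overlapped, at 13068 to 14431 and, leaving aside control replicate b, 13286 to 15606. At day 12 they were 13028 to 14266 and 15902 to 17987. Of the endothelial and pericyte markers 3 of 14 were kept, and Cdh5, Vwf and Tek were not detected. One of the 3, Slco1c1, a transporter of the blood-brain barrier, was lower at day 12 (-0.83, limma adjusted p = 0.0207), and the summed signal of the 3 was 515 to 529.9 after CHD5 shRNA and 755 to 792 in control. Of the microglia markers 2 of 13 were kept, and Itgam, Cx3cr1, P2ry12 and the 3 C1q chains were not detected. The part that the astrocyte, fibroblast, oligodendrocyte and endothelial markers have in the differences of Lpl, Lox, Spock2_predicted and A2m was not tested.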

How the data were processed

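RNA of 18 samples was measured on Illumina RatRef-12 arrays. The authors extracted the deposited signal intensity of each probe with GenomeStudio 1.1.1 (submitters' processing notes), and per the file headers it was neither normalized nor background-subtracted. The detection p-value was deposited beside each signal. A probe was kept where its detection p-value was 0.02 or less on any array (11079 of 22523), log2 signals were Z-transformed per array as in the study's methods, and multiplied by the mean SD. limma 3.58.1 (R 4.3.3) was fitted to all kept probes in 6 groups of 3 arrays, with Benjamini-Hochberg adjustment within a contrast and a limit of 0.05. The fit was tested on simulated data with independent noise, of the same SD on all arrays for a probe. These data held no outlying array and no pairing by letter, so the test does not cover such features. The number of arrays limits the precision.

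The 4 genes and the lists were chosen with earlier results of these data known. Named list genes are the direct partners kept and up to 4 called genes per list with the largest difference, the brightest probe of a gene being used. Alternatives were quantile normalization, median centring, neqc (offset 16), omitting the detection filter, requiring detection in a whole group, a replicate block, array weights, the second measurement of replicate a, only the arrays compared, and leaving out each array. Replicate letters were checked as pairs by correlating deviations from group means across probes. For CHD5 shRNA against control the 3 letters gave r of 0.27, 0.17 and 0.38 (day 5), 0.43, 0.15 and -0.20 (day 9) and 0.05, 0.15 and 0.01 (day 12), so the letters paired the arrays at day 5. For control day 12 against day 9 they gave 0.14, 0.26 and 0.17, and for the other day changes at least 1 letter was below 0.1.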

Additional observations from a re-analysis of the deposited data

How the results depend on the processing

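All differences of the 4 genes between the lentiviruses kept their direction in all 27 alternatives, and no called result changed sign, whereas some that were not called did, such as Lpl in control from day 9 to day 12 (-0.39 to 0.12) and Vldlr (-0.45 to 0.24) and Mmp14 (-0.66 to 0.07) at day 9. The number of them lower without overlap was 3 to 4 on each day. The all-probe median difference stayed within 0.0329 of 0. Counts of day changes called moved as follows, in the order control day 9 minus 5 and 12 minus 9, then CHD5 shRNA 9 minus 5, 12 minus 9 and 12 minus 5, against 3, 2, 0, 0 and 1. Quantile normalization gave 1 for the first, 1 for the third and 2 for the last. Median centring gave 1, 1 and, for the last, 0. neqc gave 1 for the first and 2 for the last, and no detection filter gave 1 and 0. Array weights gave 1, 1 and 2 for CHD5 shRNA, and the second measurement 1 for control 12 minus 9. With only the arrays compared they were 0, 0, 1, 1 and 2 (3 and 2 of the control changes at an unadjusted p under 0.05). Leaving out 1 array gave 2 to 4, 1 to 2, 0, 0 and 0 to 2. The counts of functional list genes called at days 5, 9 and 12, against 1, 18 and 11, were 5 at day 5 with quantile normalization, 3 at day 5 with neqc, 0, 3 and 3 with median centring, 0, 7 and 7 with no detection filter, 45 at day 12 with array weights, and 0, 0 and 42 with only the arrays compared. Leaving out 1 array gave 0 to 7, 4 to 24 and 4 to 26, with 7 at day 5 and 26 at day 12 without day 9 control replicate b. That array is in neither of these comparisons, but the fit takes the spread of a probe from all 18 arrays. At day 5 there were 2 without control replicate a and 0 without control replicate b or CHD5 shRNA replicate b or c (13, 12 and 16 at an unadjusted p under 0.05). At day 9 there were 10 and 4 without CHD5 shRNA replicates a and c, and at day 12 there were 4 to 7 without any 1 of the 6 arrays of that day. With the replicate block 0 list genes were called at day 5 (18 at an unadjusted p under 0.05), and Lox in control was called from day 5 to day 9 (limma adjusted p = 0.0196), while the letters did not pair those arrays. The counts of the 4 genes with the block moved in that comparison alone. Where the cause is not in the setting itself (fewer arrays, more probes), it was not tested. The A2m values are limited by their closeness to background.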

Other observations

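Apart from the 4 genes, 520 kept genes carry an extracellular annotation on the array. Genes of the 5 functional lists, such as Gpc4, Apoe and Dcn, are among them and are counted again here. Of these, 1 was lower at day 5, which was Gpc4, 36 were lower and 23 higher at day 9, and 45 were lower and 24 higher at day 12. Of all probes 0.126%, 2.25% and 3.24% were called lower on these days, and 0.0451%, 3.65% and 2.23% higher. The median difference of the 520 was -0.02, -0.06 and -0.03 at days 5, 9 and 12, against 0.01, -0.02 and 0.01 over all probes. Below 0 were 289, 321 and 300 of them. Genes with this annotation, a match of words in the array's own labels, were thus called in both directions at days 9 and 12, more of them lower than higher.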
